A study of Mus musculus with 9 samples.

Results

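The let-7 and miR-98 family was followed in the small RNA of mouse milk fat. It was taken as the 5p arms of the let-7 and mir-98 precursors, mmu-let-7a-5p, mmu-let-7b-5p, mmu-let-7c-5p, mmu-let-7d-5p, mmu-let-7e-5p, mmu-let-7f-5p, mmu-let-7g-5p, mmu-let-7i-5p and mmu-miR-98-5p, named here without the mouse prefix. These are 9 mature names, held in 12 rows for 12 precursors, of 1915 mature names in a table of 2059 rows and 1193 precursors. The milk came on lactation day 10 from 9 first-litter dams of the outbred ICR (CD1) stock. The 4 high-fat dams ate a diet with 60% of its energy as fat (5.24 kcal per g), and the 5 control dams one with 10% (3.85 kcal per g). Feeding began at 4 weeks of age, 4 weeks ahead of mating, and went on through pregnancy and lactation, and sucrose gave 7% of the energy in both diets. Dams of a diet shared cages in pairs, cage mates are not named in the sources used here, and each library stands for 1 dam. The comparison asks whether the diet moved the let-7 miRNAs that a dam secretes with her milk fat.

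let-7 was found in Caenorhabditis elegans as a small RNA that times the passage of larval cells to their adult fate, and its mature sequence is conserved from worms to mammals. In mammals the family marks differentiated cells. It represses growth genes such as Hmga2, Igf2bp1, Myc and the Ras genes, while the stem cell protein LIN28 blocks the maturation of its precursors. A miRNA finds its targets mostly through its seed, the stretch near the 5′ end that pairs with the messenger RNA, so members with 1 seed are held to share most targets. Milk fat globules bud off the secretory epithelium of the mammary gland with some of its cytoplasm, which brings the miRNAs of that cell into milk.

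The mature sequences are shown because the members differ at few bases, which bears on how well reads can be given to 1 name. They are given 5′ to 3′ from RefSeq (GRCm38.p6), with the seed, bases 2 to 8, in capitals.
let-7a-5p: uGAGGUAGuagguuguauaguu
let-7b-5p: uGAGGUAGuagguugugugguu
let-7c-5p: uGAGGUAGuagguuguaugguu
let-7d-5p: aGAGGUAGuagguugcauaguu
let-7e-5p: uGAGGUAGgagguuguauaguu
let-7f-5p: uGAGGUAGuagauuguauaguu
let-7g-5p: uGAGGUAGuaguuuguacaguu
let-7i-5p: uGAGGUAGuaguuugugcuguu
miR-98-5p: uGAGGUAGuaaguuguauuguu

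All 9 members are 22 bases long and share the seed GAGGUAG. Counted from 1 at the 5′ end, with the base of let-7a-5p first, let-7c-5p differs from let-7a-5p by A19G, let-7e-5p by U9G and let-7f-5p by G12A. let-7b-5p differs by A17G and A19G, let-7d-5p by U1A and U16C, let-7g-5p by G12U and U18C, and miR-98-5p by G11A and A19U. let-7i-5p is farthest from let-7a-5p, with G12U, A17G, U18C and A19U. Over the 36 pairs of members, 4 pairs differ at 1 base and no pair at more than 6. RefSeq sequences were found for 1623 of the 1915 names, and 11 of these names hold the seed, the 9 members, let-7k and miR-1961.

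The precursors lie on 7 chromosomes of GRCm38, several of them in groups. The precursors of let-7d at chr13:48536012-48536114, let-7f-1 at chr13:48537829-48537917 and let-7a-1 at chr13:48538179-48538272 stand on the minus strand in exons of the long non-coding RNA 6720427I07Rik. let-7c-2 at chr15:85706603-85706697 and let-7b at chr15:85707319-85707403 lie on the plus strand in exons of the non-coding Lncppara, 621 bases apart. let-7f-2 at chrX:151912346-151912428 and mir-98 at chrX:151913214-151913321 lie on the plus strand in an intron of Huwe1, which encodes a ubiquitin ligase. let-7g is in an intron of Wdr82 at chr9:106178840-106178927 on the plus strand. let-7i is in an exon of the transcribed pseudogene D630033A02Rik at chr10:122985640-122985724 on the minus strand. The other 3 precursors neighbour miRNAs of the miR-99, miR-100 and miR-125 families on the plus strand. let-7a-2 lies in introns of the non-coding 3110039I08Rik and Gm49317 at chr9:41536716-41536811, let-7c-1 in an intron of the non-coding Mir99ahg at chr16:77599657-77599750, and let-7e in an intron of Spaca6 at chr17:17830352-17830444. let-7a, let-7c and let-7f are thus made from 2 precursors each, and the mature counts cannot tell the precursors apart.

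Total mature miRNA counts ran from 1905838 to 3897109 in high-fat libraries and from 837817 to 2750482 in control libraries, and 312 names passed the filter on low counts, all 9 members among them. All 8 epithelial marker miRNAs, such as miR-200c-3p and miR-148a-3p, were detected, and they held 50.2% ± 1.28 of the counts in high-fat milk and 50.2% ± 2.30 in control milk (SD, n = 4 and 5). Marker miRNAs of leukocytes, all 5 detected, held 1.14%, 0.00777%, 0.287% and 0.0251% of high-fat libraries 1 to 4, against 0.0356% to 0.0762% of control libraries. Markers of red cells, all 4 detected, held 0.0650% of high-fat library 3 and 0.00201% to 0.00971% of the other high-fat libraries, against 0.00227% to 0.0158% of control libraries. Of 3 striated muscle markers 2 were detected and miR-206-3p was at 0 in all 9 libraries, and these markers held 0.00910% of high-fat library 3 and at most 0.000562% of any other library. Stromal markers, all 4 detected, held 1.17% to 2.57% of high-fat and 1.04% to 1.92% of control libraries. Most of these counts were of miR-143-3p. Of the scarcer stromal markers, miR-199a-3p had 575 counts in high-fat library 3 and 9 to 82 in any other library. miR-214-3p had at most 3 counts in any library. The liver miRNA miR-122-5p held 0.00126% to 0.00446% of high-fat and 0.00206% to 0.00926% of control libraries.

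The family was a large and steady part of the milk-fat miRNAs. It held 11.1%, 12.6%, 12.1% and 10.5% of all counts in high-fat libraries 1 to 4, against 10.7%, 9.48%, 12.1%, 11.7% and 12.8% in control libraries 1 to 5. The ranges of the diets overlapped over most of their length. The means were 11.6% ± 0.940 in high-fat milk and 11.4% ± 1.28 in control milk (SD, n = 4 and 5), and the difference of 0.241 percentage points was smaller than either SD. With the rows of a name summed the difference was 0.0020 percentage points. The 95% Wilson interval of a single library's share was at most 0.143 percentage points wide and covers counting error only. In bulk milk fat, fewer cells of a type and less RNA per cell cannot be told apart.

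The order of the upper members depends on how reads of names with several precursors are counted. let-7a, let-7c and let-7f each have a pair of rows that are nearly equal, and 1 row was kept, as if the rows held the same reads. No source used here states the counting rule. As all 9 are of one length, their CPM (counts relative to the scaled library size) were compared directly, though a library kit can favour some sequences over others. With 1 row kept, let-7i-5p, let-7f-5p and let-7g-5p led, between 20347.5 and 33605 CPM in every library. let-7i-5p exceeded let-7f-5p in 5 of 9 libraries and let-7f-5p exceeded let-7g-5p in 8 of 9, so that neither step was larger than the spread between dams. Each of the 3 then lay above let-7a-5p in all 9 libraries. let-7a-5p exceeded let-7c-5p in 6 of 9 libraries, and these neighbours were not separable either. With rows summed, let-7f-5p led in all 9 libraries, with a mean of 32.0% of the family counts, ahead of let-7i-5p with 16.8%, let-7a-5p with 15.6%, let-7c-5p with 15.3% and let-7g-5p with 14.2%. let-7g-5p then exceeded let-7a-5p in 2 of 9 libraries and let-7i-5p exceeded it in 6 of 9. From let-7c-5p down through let-7b-5p, let-7d-5p, miR-98-5p and let-7e-5p, each step was seen in 9 of 9 libraries under either rule. With rows summed, let-7g-5p lay between let-7c-5p and let-7b-5p on average. It then exceeded let-7c-5p in high-fat libraries 3 and 4 and in control library 2, so these neighbours were not separable. With 1 row kept, let-7c-5p had 2.14 to 2.47 times the counts of let-7b-5p, and with rows summed 4.27 to 4.92 times. let-7b-5p had 1.81 to 2.41 times those of let-7d-5p, let-7d-5p 1.75 to 2.84 times those of miR-98-5p, and miR-98-5p 1.46 to 2.15 times those of let-7e-5p. Among all mature names of a library, with 1 row kept, let-7i-5p ranked between 6 and 12, and let-7e-5p between 64 and 76.

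**Figure D1:**
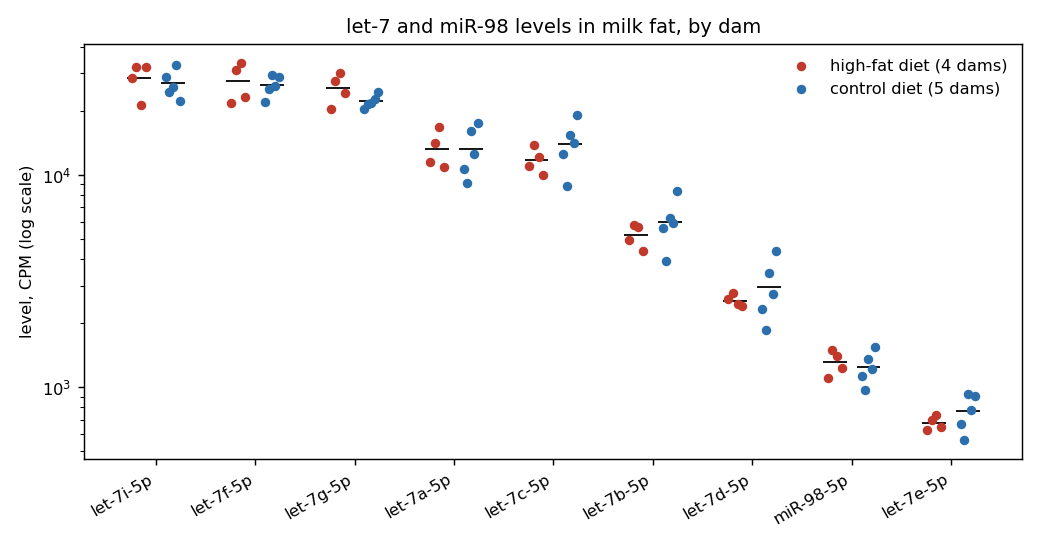
Level of each member in CPM (vertical axis, log scale) by dam, with high-fat libraries in red left of control libraries in blue and a line at each mean. The points of the diets overlap for every member, and the order of the members is nearly the same in both diets.

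let-7i-5p, the most abundant member on average with 1 row kept per name, measured 28482.5 CPM in high-fat library 1, 32237 in library 2, 21215 in library 3 and 32290.3 in library 4, against 28872, 24519.7, 25952, 32957 and 22282 CPM in control libraries 1 to 5. High-fat library 3 and control library 5 were the lowest of their diets, and the remaining values overlapped. The means were 28556 ± 5209 CPM in high-fat milk and 26917 ± 4137 CPM in control milk, and with a log2 fold change of 0.08 ± 0.16 (SE) limma-voom gave an adjusted p of 0.866. let-7f-5p, made from one precursor on chromosome 13 and one on chromosome X, measured 21703, 31222, 33605 and 23274 CPM in high-fat libraries 1 to 4, against 22032, 25172, 29535, 26139.9 and 28815 CPM in control libraries 1 to 5. Every control value lay inside the high-fat range. Its log2 fold change was 0.05 ± 0.16 (limma-voom adjusted p = 0.892).

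let-7g-5p had the smallest p of the 9 members. It measured 20347.5, 27601.5, 30127 and 24104 CPM in high-fat libraries 1 to 4, against 20478, 21508.5, 21628, 22761 and 24419.5 CPM in control libraries 1 to 5. High-fat libraries 2 and 3 lay above all controls, library 4 lay within the control range, and library 1 lay below all controls. The means were 25545 ± 4255 CPM in high-fat milk and 22159 ± 1500 CPM in control milk. The log2 fold change was 0.20 ± 0.13, with a 95% interval from -0.10 to 0.49, and the limma-voom adjusted p was 0.649. Without high-fat library 1 the log2 fold change was 0.31, and without high-fat libraries 2 and 3, each left out alone, it was 0.087 and 0.12. As a ratio the interval over all 9 libraries runs from 0.936 to 1.40, so differences beyond it in either direction lie outside what these 9 libraries allow at that level.

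let-7a-5p, to which the other sequences were compared above, measured 11445, 14026, 16688 and 10818 CPM in high-fat libraries 1 to 4, against 10617, 9119, 16016, 12530.3 and 17409 CPM in control libraries 1 to 5. Values near the top and near the bottom came from both diets, and the log2 fold change was 0.03 ± 0.21 (limma-voom adjusted p = 0.940). let-7c-5p, which differs from it by A19G, measured 10946, 13853, 12124 and 9963 CPM in high-fat libraries 1 to 4, against 12513, 8839, 15441, 14047 and 18988 CPM in control libraries 1 to 5. Control libraries 3, 4 and 5 lay above all high-fat libraries, and control library 2 lay below all of them. The means were 11722 ± 1673 CPM in high-fat milk and 13966 ± 3735 CPM in control milk. The log2 fold change of let-7c-5p was -0.21 ± 0.20, the lowest of the 9, with a 95% interval from -0.66 to 0.24 and a limma-voom adjusted p of 0.704. It was -0.11 without control library 5, and -0.37 and -0.36 without high-fat library 2 and without control library 2.

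let-7b-5p, the neighbour of let-7c-2 on chromosome 15, measured 4904, 5799, 5671 and 4349.8 CPM in high-fat libraries 1 to 4, against 5583, 3904, 6256, 5942 and 8356 CPM in control libraries 1 to 5. Control libraries 3, 4 and 5 again lay above every high-fat library and control library 2 below every one. Its log2 fold change was -0.17 ± 0.20 (limma-voom adjusted p = 0.737). It was -0.062 without control library 5, and -0.30 and -0.31 without high-fat library 2 and without control library 2.

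The 3 least abundant members gave the same picture. let-7d-5p averaged 2551 ± 170 CPM in high-fat milk and 2946 ± 993 CPM in control milk (SD, n = 4 and 5). Its 4 high-fat libraries lay between 2396 and 2774 CPM, inside the control range of 1845 to 4374 CPM. The log2 fold change of let-7d-5p was -0.14 ± 0.22 (limma-voom adjusted p = 0.835), and -0.00098 without control library 5. miR-98-5p averaged 1304 ± 176 CPM in high-fat milk and 1241 ± 220 CPM in control milk, with a log2 fold change of 0.08 ± 0.17 (limma-voom adjusted p = 0.866). let-7e-5p averaged 674 ± 49.9 CPM in high-fat milk and 767 ± 156 CPM in control milk, with a log2 fold change of -0.16 ± 0.17 (limma-voom adjusted p = 0.720). For let-7e-5p the high-fat libraries lay between 624 and 734 CPM, again inside the control range of 561 to 929 CPM.

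No member passed the test of the diet. Of the 9 members, 0 had a limma-voom adjusted p of at most 0.05, as 0 of all 312 tested names had (0%), and 0 of 9 had an unadjusted p below 0.05, where 32 of the 312 had (10.3%). limma-trend and limma-voom with library quality weights called 2 of all tested names each, and 0 members. The log2 fold change was above 0 for 5 members and below 0 for 4, with a median of 0.03, and above 0 for 158 of the 312 names (50.6%), with a median of 0.00. No member had diets that did not overlap in CPM, where 15 of the 312 names had (4.81%). The 95% intervals of the members spanned ratios from 0.633, the lower end for let-7c-5p, to 1.41, the upper end for let-7a-5p. With each of the 9 libraries left out in turn, the number of members called stayed at 0. The number of all names called went up to 4 without control library 5, the shallowest, when miR-10b-5p, miR-574-5p, miR-3470a and miR-3470b passed. The same 4 names passed without both high-fat library 3 and control library 5, a choice made after seeing the data, and again 0 members did.

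**Figure D2:**
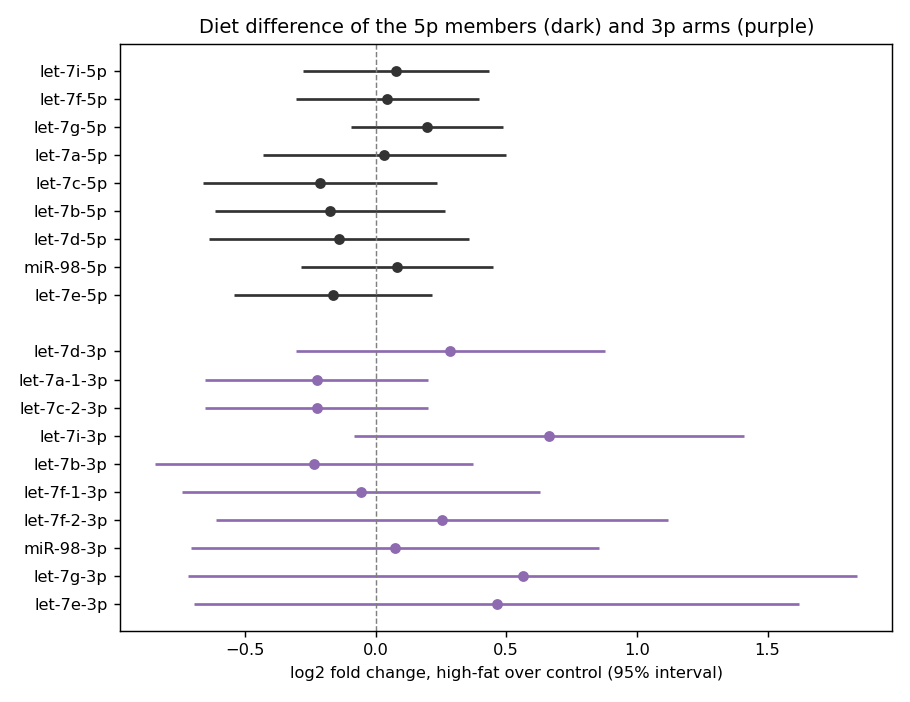
Log2 fold change of high-fat over control (points) with its 95% interval (lines) for the 9 members, dark, and for the 10 tested 3p arms of their precursors, purple. Every interval includes 0, and those of the scarce 3p arms are the widest.

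The make-up of the family was compared next, since a steady total can hide a shift among its members. let-7i-5p, let-7f-5p and let-7g-5p together made up 70.2% ± 2.03 of the family counts in high-fat milk and 66.9% ± 5.44 in control milk (SD, n = 4 and 5). With rows summed these 3 made up 64.7% ± 1.85 of the family in high-fat milk and 61.5% ± 5.46 in control milk. let-7g-5p made up 21.9% ± 1.83 of the family in high-fat milk and 19.6% ± 1.62 in control milk. let-7c-5p made up 10.1% ± 0.764 in high-fat milk and 12.1% ± 2.08 in control milk, and let-7b-5p made up 4.46% ± 0.342 in high-fat milk and 5.23% ± 0.906 in control milk. For 0 of the 9 members did the shares of the diets stay apart, where the counts of 9 of the 312 tested names, divided by the family counts in the same way, did (2.88%). Without control library 2 they did for 16 of the 312 names (5.13%), 4 of which were members, with let-7g-5p higher and let-7b-5p, let-7c-5p and let-7e-5p lower in high-fat milk. Control library 2 gave let-7c-5p 9.17% and let-7b-5p 4.05% of its family counts, against at least 11.8% and 4.99% in the other 4 control libraries. In total count it was the second shallowest of the 9 libraries. These shares carry no test, as they are parts of one sum.

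**Figure D3:**
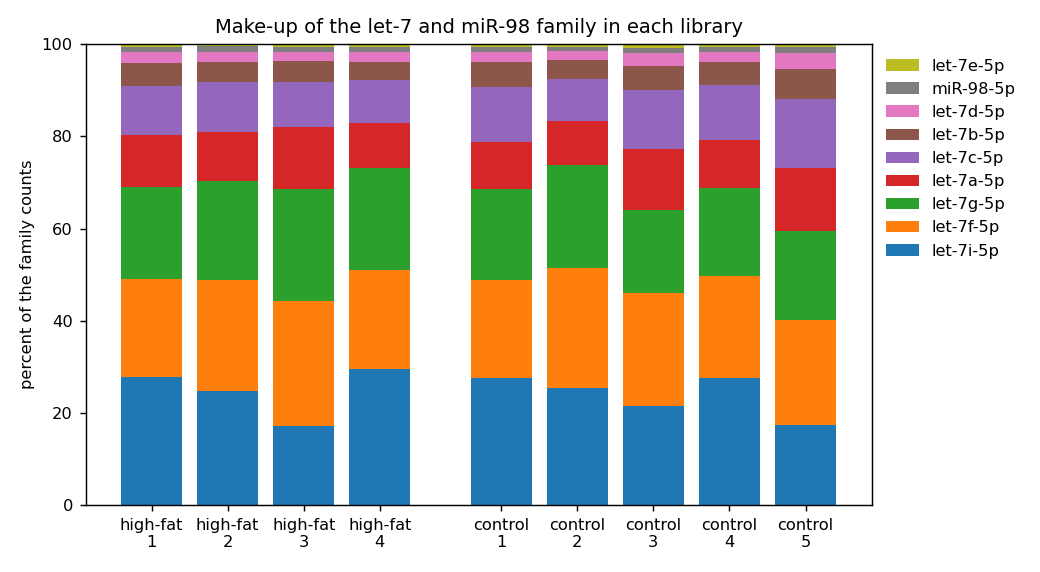
Percent of the family counts held by each member (stacked bars) in the 4 high-fat libraries, left, and the 5 control libraries, right. let-7i-5p, at the base of each bar, holds 17.1% in high-fat library 3 and 17.5% in control library 5, and between 21.5% and 29.6% in the other 7 libraries.

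let-7i-5p was the member whose share of the family changed most between dams in percentage points, and it did so in both diets. Relative to its size, the smaller share of let-7d-5p, 1.91% to 3.44% over the 9 libraries, changed no less. let-7i-5p made up 27.9%, 24.9%, 17.1% and 29.6% of the family in high-fat libraries 1 to 4, against 27.7%, 25.4%, 21.5%, 27.7% and 17.5% in control libraries 1 to 5. With rows summed it made up 11.4% in high-fat library 3 and 11.6% in control library 5, and 14.3% to 21.1% in the other 7 libraries. With 1 row kept, the count ratio of let-7i-5p to let-7a-5p was 1.27 in high-fat library 3 and 2.30 to 2.98 in the other 3 high-fat libraries. In control milk it was 1.28 in library 5, 1.62 in library 3 and 2.63 to 2.72 in the other 3 libraries. High-fat library 3 and control library 5 were thus alike in this ratio, across the diets. They also had the lowest summed epithelial marker shares of their diets, 48.8% in high-fat library 3 and 46.1% in control library 5. The markers in this sum did not move together. In both libraries miR-30a-5p had the lowest share of all counts in its diet, while miR-200b-3p and miR-200c-3p had the highest. None of the other epithelial markers was at the same end in both libraries. High-fat library 3 held the highest red cell and striated muscle marker shares of all 9 libraries, while control library 5 held 0.00227% for red cell and 0.000119% for striated muscle markers. The part of these markers in the result was not tested. Control library 5 was also the shallowest library, and high-fat library 3, with 2022572 counts, was not the shallowest of its diet.

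Pairs of members were compared for how their levels varied together over the 9 libraries. The Pearson r of log2 CPM had a median of 0.718 over the 36 pairs and ran from -0.46 to 0.984. These values are descriptions, since the pairs share the libraries, their depth and, where sequences are alike, possibly reads. let-7b-5p and let-7c-5p, neighbours on chromosome 15 that differ at 1 base, had the highest r. The 8 pairs with r below 0 were the 8 that hold let-7i-5p, from -0.46 with let-7a-5p to -0.18 with let-7c-5p, and the 28 pairs without it ran from 0.131 to 0.984. Spearman's rho was also below 0 for all 8 pairs with let-7i-5p and for none of the other 28. Without high-fat library 3 and control library 5, a choice made after seeing the data, 0 of the 8 pairs were below 0. Their r then ran from 0.0450 to 0.601 over 7 libraries. The libraries left out are those with the lowest let-7i-5p, so a loss of the negative sign is in part built into the choice. The 28 other pairs then had a median r of 0.724, against 0.790 over all 9 libraries.

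**Figure D4:**
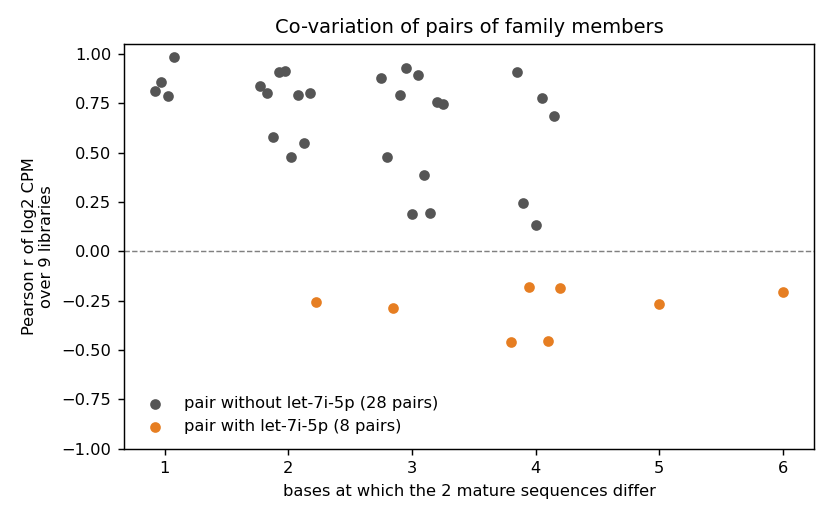
Pearson r of log2 CPM over 9 libraries (vertical axis) for each pair of members, against the number of bases at which their mature sequences differ (horizontal axis, points spread sideways within a number). The 8 pairs with let-7i-5p, orange, lie below 0 at every number of differences they occur at, and the 28 other pairs, grey, lie above 0.

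The number of differing bases and r were set side by side. The median r was 0.835 for the 4 pairs that differ at 1 base, 0.798 at 2 bases, 0.747 at 3 bases and 0.131 at 4 bases. At 4 bases, r was -0.46 to -0.18 for the pairs of let-7i-5p with let-7a-5p, let-7c-5p, let-7f-5p and miR-98-5p. The pairs at 4 bases without it ran from 0.131 for let-7d-5p with let-7g-5p to 0.906 for let-7b-5p with let-7d-5p. All pairs at 5 and 6 bases hold let-7i-5p, so the fall of r from 4 bases on cannot be told apart from that member. let-7g-5p, which is only 2 bases from let-7i-5p, had an r of -0.26 with it over 9 libraries and of 0.601 without high-fat library 3 and control library 5.

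The miRNAs most like each member, by Pearson r over the 9 libraries, were often other members. let-7c-5p came first for let-7b-5p, let-7d-5p and let-7e-5p, with r of 0.984, 0.927 and 0.913, and miR-98-5p and let-7a-5p came first for each other with 0.906. let-7f-5p and let-7g-5p were both closest to miR-365-3p, with r of 0.854 and 0.829. let-7i-5p was closest to miR-98-3p, with r of 0.908, a scarce name at 18.7 CPM on average. Like let-7i-5p, miR-98-3p was lowest of its diet in high-fat library 3 (9.11 CPM) and in control library 5 (13.1 CPM). Each of these r is the highest of a search over the tested names and is a description only. For the summed family the 5 nearest names outside it were miR-328-3p (0.735), miR-183-5p (0.677), miR-30c-5p (0.659), miR-532-5p (0.651) and miR-26a-5p (0.637).

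The spread between dams of the same diet was small for let-7g-5p and larger for let-7a-5p to let-7d-5p. The pooled within-diet SD of log2 CPM was 0.177 for let-7g-5p, and 19 of the 312 tested names had a smaller one. It was 0.234 to 0.249 for miR-98-5p, let-7f-5p, let-7e-5p and let-7i-5p, and 0.323 to 0.372 for let-7b-5p, let-7c-5p, let-7a-5p and let-7d-5p. The family summed had an SD of 0.163, below that of every member. The median SD was 0.436 over all tested names and 0.261 over the 68 names at least as abundant as let-7e-5p, so the members were about as variable as other abundant miRNAs. For let-7d-5p the SD was 0.0949 among high-fat dams and 0.486 among control dams, and for let-7g-5p it was 0.247 among high-fat dams and 0.0964 among control dams. These differences in spread were not tested.

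The opposite, 3p arms of the same precursors are the strands that are mostly discarded when the hairpin is cut. Of 12 such names 10 were tested. By limma-voom 0 passed the adjusted threshold, as 0 of all 312 tested names did (0%). None had an unadjusted p below 0.05, where 10.3% of all tested names had. The log2 fold change was above 0 for 6 of the 10 and below 0 for 4, with a median of 0.16, and above 0 for 50.6% of all tested names. Among those below 0, let-7a-1-3p and let-7c-2-3p have one sequence and are not separate measurements. let-7d-3p was the most abundant, at 591 ± 145 CPM in high-fat milk and 487 ± 151 CPM in control milk. let-7a-2-3p and let-7c-1-3p had at most 2 counts in any library.

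let-7i-3p had the largest log2 fold change of the tested 3p arms. It measured 179, 132, 92.1 and 194 CPM in high-fat libraries 1 to 4, against 128, 82.6, 89.9, 126 and 36.8 CPM in control libraries 1 to 5. High-fat libraries 1, 2 and 4 lay above all controls, and high-fat library 3 lay within the control range. The means were 149.5 ± 46.5 CPM in high-fat milk and 92.8 ± 37.5 CPM in control milk, a log2 fold change of 0.66 ± 0.34. limma-voom gave it a p of 0.0756 unadjusted and 0.537 adjusted. Its seed, UGCGCAA, is not that of let-7i-5p.
let-7i-3p: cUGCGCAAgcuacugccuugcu
let-7d-3p: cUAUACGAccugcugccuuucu
let-7a-1-3p: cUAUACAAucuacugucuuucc
let-7c-2-3p: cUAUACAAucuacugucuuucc
The last pair is shown because both names have one sequence. Their counts were equal in 8 of 9 libraries and differed by a single read in high-fat library 1, so that the reads of these 2 precursors cannot be told apart.

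How far a precursor favours its 5p arm was measured by dividing the 5p count by the 3p count and taking log2. The 5p counts of let-7a, let-7c and let-7f come from several precursors. Ratios for let-7a-1, let-7c-2, let-7f-1 and let-7f-2 are therefore not those of a single precursor. Of 149 precursors tested by limma, 0 reached the adjusted threshold of 0.05 (0%), and 5 had p below 0.05 before adjustment (3.36%). Some of the 149 repeat the same counts, as the precursors of mir-467a, mir-669a, mir-9, mir-199a and mir-3084 share both arms. Of the 10 let-7 and mir-98 precursors among the 149, 0 were below 0.05 unadjusted. The 5p arm prevailed in all 10 precursors and in every library. let-7g was the most one-sided, with a log2 ratio of 11.4 ± 1.21 in high-fat milk and 11.4 ± 0.768 in control milk, and rested on 7 to 49 counts of its 3p arm. let-7d was the least one-sided, at 2.15 ± 0.37 in high-fat milk and 2.59 ± 0.64 in control milk. let-7d-3p thus made up 18.4%, 20.0%, 13.7% and 22.5% of both arms in high-fat libraries 1 to 4, against 19.8%, 13.9%, 13.8%, 19.2% and 7.58% in control libraries 1 to 5. The diets overlapped, and control library 5 was the lowest. The 95% Wilson interval of such a share was at most 2.65 percentage points wide.

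The arms of let-7i differed most between the diets, without passing the test. Its log2 ratio was 7.31, 7.93, 7.84 and 7.38 in high-fat libraries 1 to 4, against 7.81, 8.21, 8.17, 8.02 and 9.22 in control libraries 1 to 5. High-fat libraries 2 and 3 lay within the control range, high-fat libraries 1 and 4 below it, and control library 5 stood above the rest. The difference was -0.67 ± 0.34, for which limma gave a p of 0.0761 unadjusted and 0.794 adjusted. Without control library 5 it was -0.44 (limma adjusted p = 0.667), and without high-fat library 3 and control library 5 it was -0.52 (limma adjusted p = 0.570).

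**Figure D5:**
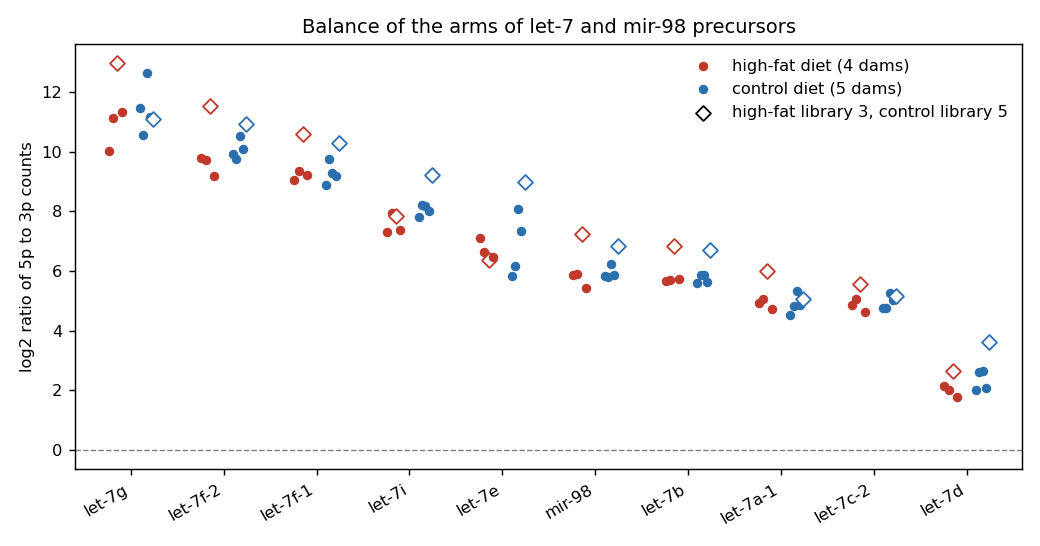
Log2 of the 5p count over the 3p count (vertical axis) for the 10 tested precursors by dam, with high-fat libraries in red left of control libraries in blue. Open diamonds mark high-fat library 3, the highest of its diet in 8 of 10 precursors, and control library 5, the highest of its diet in 7 of 10.

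The same pair of libraries stood out across the arms of the family. No such count was made over all 149 precursors, so whether this is particular to the family was not tested. High-fat library 3 had the highest ratio of its diet in 8 of the 10 precursors, all but let-7e and let-7i, and control library 5 in 7 of the 10, all but let-7a-1, let-7c-2 and let-7g. For let-7b the ratio was 6.83 in high-fat library 3 and 5.66 to 5.74 in the other 3 high-fat libraries, against 6.70 in control library 5 and 5.59 to 5.88 in the other 4 control libraries. The let-7 precursors are not separate measurements here, as let-7f-1 and let-7f-2 share their 5p counts, and let-7a-1 and let-7c-2 their 3p counts. Reads of let-7a-2 and let-7c-1 can also enter the 5p counts of let-7a-1 and let-7c-2.

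Some names close to the family were examined for reads. let-7j, an annotated miRNA on chromosome 3, is set beside let-7i-5p because they are nearly one sequence.
let-7i-5p: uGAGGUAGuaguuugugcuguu
let-7j: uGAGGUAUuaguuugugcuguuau
With the base of let-7i-5p first, let-7j differs by G8U and has 2 more bases at the 3′ end, so its seed is not that of the family. Its counts were 4.70% ± 0.754 of those of let-7i-5p in high-fat milk and 4.90% ± 0.824 in control milk (SD, n = 4 and 5), and lay between 3.89% and 6.19% in all 9 libraries. let-7k, which holds the family seed, had 0, 12, 10 and 1 counts in high-fat libraries 1 to 4, against 0, 0, 1, 0 and 2 in control libraries 1 to 5. miR-1961, which also holds it, had 1 count in high-fat library 3 and 0 in the other 8 libraries. The members thus gave nearly all reads of names with this seed.

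The miR-99, miR-100 and miR-125 miRNAs lie beside 3 of the let-7 precursors. miR-125 is the mammalian counterpart of worm lin-4, another timing miRNA, and miR-99 and miR-100 are known to repress Mtor. The gap is 94 bases between mir-99b and let-7e and 656 bases between mir-99a and let-7c-1. Of 11 names 8 were tested, and 0 passed the adjusted threshold by limma-voom. The log2 fold change was above 0 for 3 and below 0 for 5, and 1 of 8 had an unadjusted p below 0.05, where 10.3% of all tested names had. That name was miR-125a-3p, which measured 53.6, 36.9, 36.4 and 34.7 CPM in high-fat libraries 1 to 4, against 57.6, 47.4, 50.0, 61.9 and 71.3 CPM in control libraries 1 to 5. High-fat libraries 2, 3 and 4 lay below all controls and high-fat library 1 within their range. Its log2 fold change was -0.49 ± 0.21 (limma-voom adjusted p = 0.441). miR-99b-5p, the near neighbour of let-7e, had a log2 fold change of 0.22 ± 0.17, and let-7e-5p one of -0.16 ± 0.17, neither past the test. miR-125b-5p measured 420 CPM in high-fat library 3 and 50.5 to 119 CPM in the other high-fat libraries, against 109 to 170 CPM in control libraries.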

How the data were processed

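The authors counted the reads of known mature miRNAs in 9 milk-fat libraries, and the deposited values, whole read counts with no normalization seen in them, are recorded here as a score because 833 cells carry comma separators, which were removed on reading. The submitters' processing notes name cutadapt 1.9.1, an adapter trimmer, and the build GRCm38. The aligner, the counting rule and any merging of PCR copies are not given in the sources used, so counts are reads. The Wilson intervals of shares cover counting error only, while the intervals of fold changes come from the limma fits and include the spread between dams.

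Rows of a name with several precursors held nearly equal counts. The rows of let-7a differed by at most 0.287%, those of let-7c by 1.07% and those of let-7f by 0.0941%, so the highest row was kept in each library. Names with 10 counts at the median library size (5.25 CPM) in 4 or more libraries, and 15 counts in total, were tested, and the rest held 0.0470% of the counts. Libraries were scaled by trimmed mean of M values written out in R 4.3.3, and limma 3.58.1 with voom weights tested diet alone over 312 names. limma-voom tests are two-sided with Benjamini-Hochberg adjustment. Arm ratios used limma on log2 ratios with a pseudocount of 0.5 for precursors whose arms each had 5 counts in 4 or more libraries, leaving out 3 precursor names with several arm pairs. Both procedures were tested on simulated data. No pair of libraries within a diet was a repeat, with chi-square per degree of freedom of at least 50.2. Loci come from GENCODE and sequences from RefSeq.

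The family, its lists and the rule for named miRNAs (all members, their 3p arms, seed-sharing names, cluster partners and the nearest names by r) were chosen with earlier results of these data known. Alternatives were other scalings, filters, weights and row rules, a replicate block and leaving out each library.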

Additional observations from a re-analysis of the deposited data

Results flagged for a closer look

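In 58 groups of values, each of 1 diet, the search was for a single library that stands away from the rest, and 4 groups held one, where chance gives about 1 in 20, or 2.9. let-7i-5p held 2.07% of all counts in high-fat library 3 and 3.10% to 3.13% in the other 3 high-fat libraries. The log2 ratio of the let-7b arms was 6.83 in high-fat library 3, with 5.66 to 5.74 in the other high-fat libraries. The same ratio was 6.70 in control library 5, with 5.59 to 5.88 in the other control libraries. The log2 ratio of the let-7i arms was 9.22 in control library 5, with 7.81 to 8.21 in the other control libraries.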

How the results depend on the processing

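No alternative called any of the 9 members or any of the 10 arm ratios. Of all tested names, 4 passed without the filter, 2 with limma-trend, 2 with quality weights, 4 without both high-fat library 3 and control library 5, and 0 to 4 with 1 library left out. The cause was not tested. Replicate numbers are shared between the diets but same-numbered libraries did not deviate together (r of 0.06, -0.08, 0.20 and -0.16), and the fit with the replicate block called 3 names. The number of members with separate shares of the family ran from 0 to 4 with 1 library left out. Of 153 member values under alternatives 138 kept their direction. Adjusted p ran from 0.312 to 0.998, by limma-voom or, where that was the alternative, by limma-trend. Values here are log2 fold changes of members and log2 differences of arm ratios, high-fat over control. With rows summed, let-7a-5p was at -0.012 and let-7f-5p at -0.00031. Under the replicate block let-7d-5p was at 0.0050, the mir-98 arms at 0.18 and the let-7i arms at -0.44. Control library 5 is alone in its block, so for the arms this fit repeats the differences found without that library. Without both libraries let-7d-5p was at 0.018, let-7f-5p at -0.029, and the arms of let-7b, let-7c-2 and let-7f-1 at -0.041, -0.12 and -0.076. With 1 library left out, let-7a-5p ran from -0.082 to 0.14, let-7f-5p from -0.093 to 0.16, let-7i-5p from -0.056 to 0.21 and miR-98-5p from -0.054 to 0.17, while let-7b-5p ran from -0.31 to -0.062, let-7c-5p from -0.37 to -0.11, let-7d-5p from -0.28 to -0.00098, let-7e-5p from -0.27 to -0.070 and let-7g-5p from 0.087 to 0.31. The arm differences then ran from -0.0095 to 0.42 for let-7a-1, -0.23 to 0.24 for let-7b, -0.16 to 0.15 for let-7c-2, -0.62 to -0.19 for let-7d, -1.0 to -0.21 for let-7e, -0.28 to 0.27 for let-7f-1, -0.68 to 0.10 for let-7f-2, -0.55 to 0.42 for let-7g, -0.79 to -0.44 for let-7i and -0.37 to 0.23 for mir-98. With counting-error weights the let-7c-2 arms were at -0.052, and with a pseudocount of 5 those of let-7g were at 0.11 and of mir-98 at 0.088. The family share difference ran from -0.23 to 0.59 percentage points with 1 library left out. Other scalings moved the median of all names by -0.01 and -0.00 on the log2 scale. Depth limits the scarce 3p arms most.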
